A study of Rattus norvegicus with 6 samples.

Results

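Slc28a2 is the gene for a sodium-coupled nucleoside transporter of the cell membrane. Here it was followed through 1 catalogue probe, A_44_P1024721, in cultured rat BMMSCs, the mesenchymal stromal cells of bone marrow, which can become bone-forming osteoblasts. The probe was 1 of 38804 non-control probes on an Agilent array. It was chosen by its log2 levels in these same 6 arrays, namely their wide spread within the groups, so its own levels are given as a description and were not tested. Its target accession, NM_031664, matched Slc28a2 in the RefSeq gene table of the rat assembly GRCr8, which places the gene on chromosome 3. No coordinate is given because the array headers name an older build, and the part of the transcript under the probe was not analysed here.

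All 6 samples were BMMSCs from rat femurs kept for 7 days in osteogenic medium, 3 from Wistar rats (the normal control) and 3 from GK rats (the type 2 diabetes model of the labels). Total RNA of each sample was labelled with Cy3 and hybridised to its own array. The labels give no age, do not say whether a replicate is a separate animal or a pool, and hold no sample without induction. GK and Wistar differ by strain as well as by diabetes, and these cannot be told apart. The comparison asks how GK and Wistar cells differed under the same induction.

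The product of Slc28a2, concentrative nucleoside transporter 2, uses the inward sodium gradient to carry nucleosides into the cell against their own gradient. It prefers purine nucleosides such as adenosine, inosine and guanosine, and also takes uridine. Its relatives Slc28a1 and Slc28a3 encode the other concentrative transporters, while the Slc29 family encodes equilibrative ones that only follow the gradient. Uptake feeds the salvage of nucleosides into nucleotides and lowers the adenosine that surface receptors can sense.

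Each array carried the probe at 10 spots spread over its surface. In the sentences that follow, a level is the mean log2 processed signal over the spots, minus the 75th percentile of all probes on the same array. A level of 0 is thus the brightness that 75% of the probes do not exceed, and each unit is a doubling.

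The share of probes well above background lay between 65.1% and 77.3% per array, saturated spots numbered 0, and the 75th percentile of the signal ran from 171.6 to 234.8 units. Wistar replicates 1 to 3 and GK replicate 1 lay on one slide, going by the scan identifier in the headers, and GK replicates 2 and 3 on another. GK replicate 3 stood apart from its group. Over 27595 probes it correlated at 0.948 with GK replicate 1 and at 0.962 with GK replicate 2, and at 0.971 with Wistar replicate 3, whereas GK replicates 1 and 2 correlated at 0.982. The group difference, the ranks of the spread and the correlations are therefore also given without it. Array weights, which are lower for an array that departs more from its group, were also fitted. They were lowest for GK replicate 1 (0.34), with GK replicate 3 next (0.47). Of 40 marker genes listed for stromal, osteoblast and other cell types, 1 had a named probe (the neural marker Map2, well above background on 2 of 6 arrays), so the cell type on the labels was not tested here.

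Slc28a2 was bright in Wistar cells and in a single GK culture, and far dimmer in the other two GK cultures. The 3 Wistar arrays read 3.77, 5.64 and 6.46 for replicates 1, 2 and 3. GK replicates 1, 2 and 3 read -0.96, 1.34 and 6.62. The GK arrays thus held both the lowest and the highest level of the study, with all 3 Wistar levels between GK replicates 2 and 3, so the groups overlapped.

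The same picture stood in the unscaled processed signal. Its geometric mean over the spots was 88.4 on GK replicate 1 and 495.4 on GK replicate 2. On Wistar replicates 1, 2 and 3 it was 2955, 9662 and 15261, and on GK replicate 3 it was 23037. The dimmest array was still measured, since all 6 arrays were well above background for this probe and the median local background lay between 17 and 18.5 units of raw pixel signal. From the lowest to the highest array the scaled level ran over 7.57 log2 units, or 190.5-fold, and the unscaled signal over 260.6-fold.

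**Figure D1:**
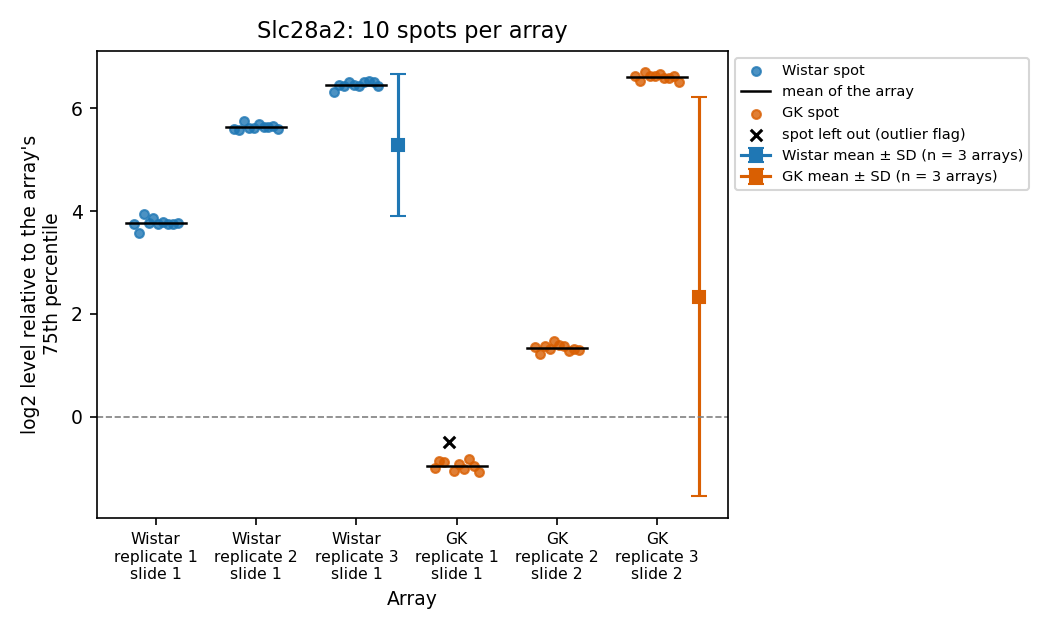
Level of Slc28a2 at each of the 10 spots per array (points), with the array mean (black line) and the group mean ± SD over 3 arrays (squares with bars); the y axis is the log2 level after the 75th percentile of the array is subtracted. The spots of an array lie close together while the arrays run from -0.96 to 6.62, and the spot marked with a cross on GK replicate 1 was left out for its outlier flag.

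The GK mean was 2.33 ± 3.88 (SD, n = 3) and the Wistar mean 5.29 ± 1.38 (SD, n = 3). The difference, GK minus Wistar, was -2.96 with a standard error of 2.38 from the SDs within the groups. It was close in size to the pooled SD between arrays of a group, 2.91. Without GK replicate 3 the difference was -5.10, and without GK replicate 1 it was -1.31. On the first slide, GK replicate 1 lay 6.25 log2 units below the mean of the 3 Wistar arrays. On the second slide, which holds GK arrays alone, GK replicate 3 lay 5.28 log2 units above GK replicate 2, or 38.7-fold. Each gap lay between arrays of a single slide, the former resting on 1 GK array and the latter on GK arrays alone. The part of slide, strain or single arrays in them was not tested. Bulk RNA does not tell fewer cells that hold the transcript from less of it per cell.

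**Figure D2:**
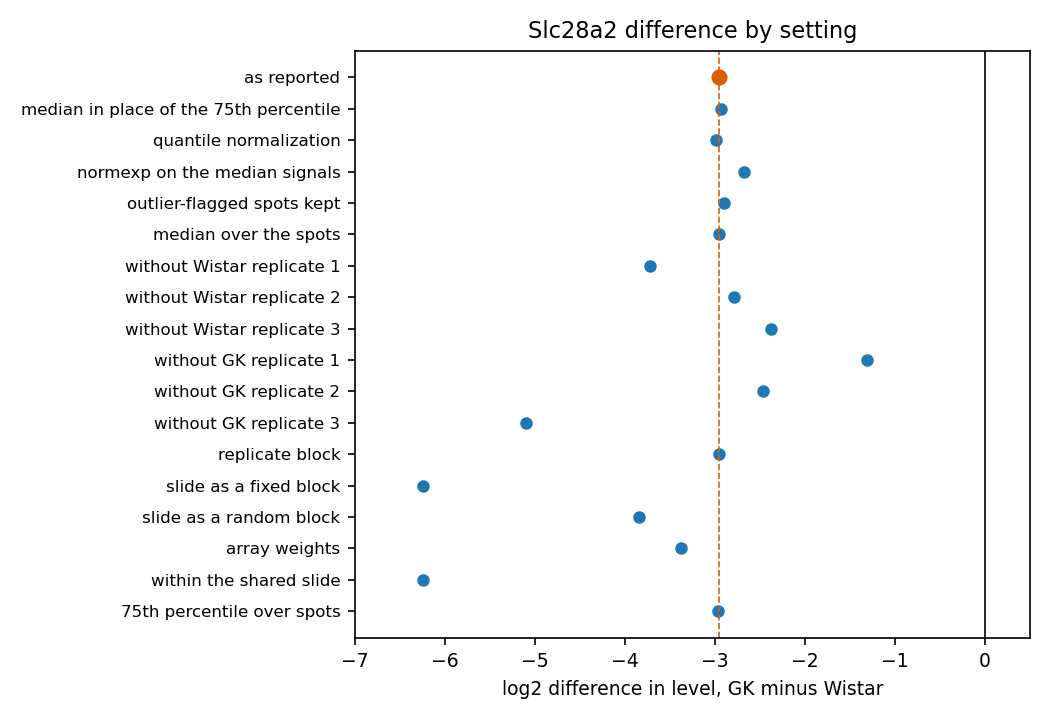
Difference in the log2 level of Slc28a2, GK minus Wistar, as reported (orange) and under each other setting (blue), with zero difference as the black line. Every setting plotted lies below zero, from -6.25 with the slide as a fixed block or within the shared slide to -1.31 without GK replicate 1.

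Agreement between spots was close by comparison. The SD over the spots of an array lay between 0.052 (Wistar replicate 2) and 0.093 (Wistar replicate 1), and its median of 0.065 was far below the pooled SD between arrays. On GK replicate 1 the spots in use ran from 81.1 to 96.6 signal units, and a single spot at 121.8 carried an outlier flag and was left out. On GK replicate 3 the spots ran from 21532 to 24572 units. Among the 39 other catalogue probes that passed the filter on dim probes (well above background on at least 3 of 6 arrays), 32 had a larger median SD between spots than Slc28a2. These probes were not matched for brightness, and most were dimmer than Slc28a2.

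Ordered by level, the arrays ran GK replicate 1, GK replicate 2, Wistar replicate 1, Wistar replicate 2, Wistar replicate 3 and GK replicate 3. The first 4 steps were 2.30, 2.43, 1.87 and 0.82 log2 units, and at each of them no spot of the dimmer array reached the lowest spot of the brighter one. The last step, from Wistar replicate 3 to GK replicate 3, was 0.15 log2 units or 1.11-fold, and there the spots overlapped. Spots measure the array and not the culture, so these steps describe single samples. Wistar replicates 1 and 3 alone differed 6.45-fold.

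The place of Slc28a2 among all probes also differed between arrays. It was brighter than 67.6% of the measured probes on GK replicate 1 and 81.7% on GK replicate 2. In Wistar cells it stood at the percentile 91.1, 96.8 and 98.3 for replicates 1, 2 and 3, and on GK replicate 3 at 98.4. On GK replicate 3 only 625 of 38803 measured probes were brighter, against 12574 of 38801 on GK replicate 1. These places moved by at most 0.38 percentage points under the other background correction and spot summaries that were run. The other scalings keep the order of probes within an array, so they could not move them.

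Few probes ranged as widely. Of the 27920 probes that passed the filter, 74 (0.265%) had a wider range over the 6 arrays than Slc28a2, and the median range was 0.93 log2 units, or 1.91-fold. The count was 16 with normexp background correction on the median signals, and 34 when every array had to be well above background. It was 224 without GK replicate 1, 32 without Wistar replicate 3 and 65 without GK replicate 3. The stricter filter compares fewer probes, and a range with an array left out covers fewer arrays. Those counts cannot be set directly against 74. Within GK, 33 probes (0.118%) had a larger SD than its 3.88, against a median of 0.35. Without GK replicate 3 its SD over the 2 GK arrays left was 1.62, and 102 of 26559 other passing probes (0.384%) had a larger one, a count added after seeing the data. Within Wistar, 448 probes (1.60%) had a larger SD than its 1.38, against a median of 0.25. The probe was chosen for this spread, so these ranks describe the choice. Probes of similar brightness seldom ranged as widely. Of 1256 passing probes with a mean level within 0.5 of that of Slc28a2 (3.81), 8 (0.637%) had a wider range. This share was larger than the 0.265% over all passing probes. The median range of the 1256 probes was 0.87.

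**Figure D3:**
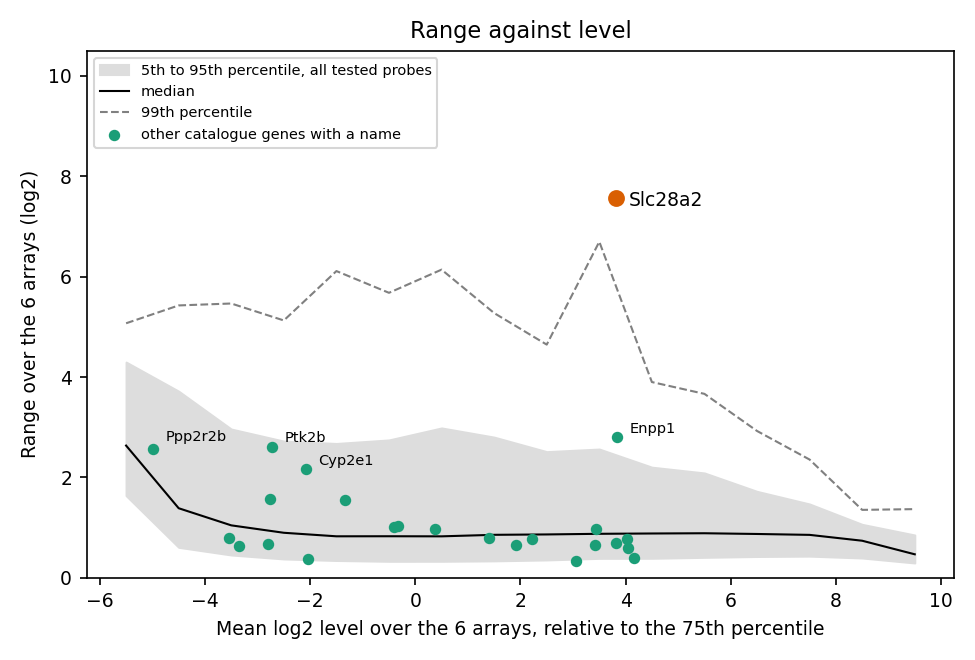
Range over the 6 arrays (log2) against the mean log2 level, for Slc28a2 (orange) and the 23 other named catalogue genes that passed the filter (green); the grey band, black line and dashed line give the 5th to 95th percentile, median and 99th percentile of all passing probes per level bin. Slc28a2 lies above the 99th percentile line at a range of 7.57, and the next named gene is Enpp1 at 2.80.

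Among the 23 other named genes that passed the filter, the range over the arrays lay between 0.33 and 2.80, with a median of 0.80. The widest was Enpp1, an ectoenzyme that cleaves extracellular ATP to AMP and pyrophosphate, at 2.80. The next were Ptk2b, a focal adhesion kinase relative, at 2.61, and Ppp2r2b, a regulatory subunit of protein phosphatase 2A, at 2.57. All 3 ranges were far below the 7.57 of Slc28a2.

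Of the 42 other genes of nucleoside transport, nucleoside salvage and purine signalling that were listed, 2 had a named probe. The other transporters of the Slc28 and Slc29 families, the salvage enzymes such as Ada, Adk and Pnp, and the adenosine receptors could not be paired with a probe and were not analysed here. P2rx2, an ATP-gated ion channel, was well above background on 0 of 6 arrays and was not tested. Enpp1 acts on the same extracellular pool, since the AMP it makes can be turned into adenosine.

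Enpp1 read 3.60, 3.51 and 2.58 on Wistar replicates 1, 2 and 3, and 5.38, 5.26 and 2.68 on GK replicates 1, 2 and 3. It was highest on the 2 arrays where Slc28a2 was lowest, and lowest on Wistar replicate 3 and GK replicate 3, where Slc28a2 was highest. Of all passing probes measured on every array, 13.9% likewise had GK replicates 1 and 2 both above the rest. A link between the 2 genes was not tested. The GK mean of Enpp1 lay 1.21 log2 units above its Wistar mean (standard error 0.74, moderated by limma, unlike that given for Slc28a2). This difference did not pass limma's test over all probes (adjusted p = 0.556). At an adjusted p under 0.05 limma thus called 0 of 1 tested genes of the list, beside 0.358% of all 27920 probes tested. At an unadjusted p under 0.05 the list count was also 0. Without GK replicate 3, Enpp1 was 2.09 log2 units higher in GK cells with a limma adjusted p of 0.0401. That array was singled out by its levels in these same data and held the lowest GK level of Enpp1. Leaving it out therefore favours a call, and the fit is not a separate test. The share of all probes called in it is not given here. Over every array left out in turn and the fit without the filter, its adjusted p lay between 0.0401 and 0.834.

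Likeness to Slc28a2 was measured as Pearson's r of the log2 levels over the 6 arrays, with Spearman's rho beside it. It is a description, because the arrays share slides and groups. The 3 named genes with the highest r were Cdh2, Dlg4 and Ppp2r2b. Cdh2, which encodes the adhesion protein N-cadherin, had r = 0.79 and rho = 0.66, and it read -0.86, -0.85 and 0.015 on GK replicates 1, 2 and 3 against 0.18, -0.32 and -0.11 on Wistar replicates 1, 2 and 3. It was lowest on GK replicates 1 and 2, as Slc28a2 was, but over a range of 1.04 rather than 7.57. Dlg4, a scaffold protein of synapses, had r = 0.76, and Ppp2r2b, well above background on 4 arrays, had r = 0.64.

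At the other end stood Mex3c, an RNA-binding ubiquitin ligase, with r = -0.97 and rho = -0.94. It read -2.37, -2.69 and -2.96 on GK replicates 1, 2 and 3 and -2.82, -2.94 and -3.05 on Wistar replicates 1, 2 and 3, a range of 0.68. Its levels stood in nearly the reverse order of those of Slc28a2, though the steps were small. Med16, a subunit of the Mediator complex, had r = -0.88, and Ldha, a subunit of lactate dehydrogenase, also had r = -0.88. Enpp1 had r = -0.96. Leaving out GK replicates 1 and 2, the arrays farthest from the median Slc28a2 level, r over the 4 arrays left was -0.84 for Enpp1, -0.91 for Mex3c, -0.48 for Med16 and -0.45 for Ldha. It was 0.99 for Dlg4, 0.70 for Ppp2r2b and -0.50 for Cdh2, so the high r of Cdh2 rests on GK replicates 1 and 2. Without GK replicate 3, r over 5 arrays was 0.75 for Cdh2, 0.69 for Dlg4 and 0.71 for Ppp2r2b. It was then -0.98 for Mex3c, -0.95 for Enpp1, -0.93 for Ldha and -0.91 for Med16.

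Probes without a gene name came closer. Over 27594 other passing probes measured on all arrays, 597 (2.16%) had an r of at least 0.9 with Slc28a2 and 685 (2.48%) an r of at most -0.9. Without GK replicate 3, also added after seeing the data, these were 1106 (4.16%) and 1137 (4.28%) of 26559 probes. With fewer arrays a given r is reached more easily, so these shares cannot be set directly against those over all arrays. Of the 291 other probes with a range of at least 4 log2 units that every array showed well above background, 119 (40.9%) had an r of at least 0.9 and 10 (3.44%) an r of at most -0.9. Among these 291, ASRN6AP1B100045959V3 had the highest r, 0.999, and the same value without GK replicate 3. It read 3.78, 4.88 and 5.37 on Wistar replicates 1, 2 and 3 and 1.38, 2.53 and 5.51 on GK replicates 1, 2 and 3. Its arrays stood in the same order as those of Slc28a2, over a range of 4.14. The lowest r among the 291, -0.97 (-0.98 without GK replicate 3), belonged to ASRN6AP1B109412756V3, which read 1.56 and 0.99 on GK replicates 1 and 2 and between -2.60 and -1.50 on the other 4 arrays.

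A single probe lay within 1 log2 unit of Slc28a2 on every array. This was ASRN6AP1B100037643V3, chosen after its values were seen, which read 3.70, 5.48 and 6.25 on Wistar replicates 1, 2 and 3. On GK replicates 1, 2 and 3 it read -1.71, 0.54 and 6.15. It had r = 0.998 with Slc28a2, with or without GK replicate 3, and a range of 7.96 log2 units, or 249.1-fold, and its largest gap to Slc28a2 was 0.80. The files do not pair this probe with a gene. Whether it lies in the same transcript was not analysed here.

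**Figure D4:**
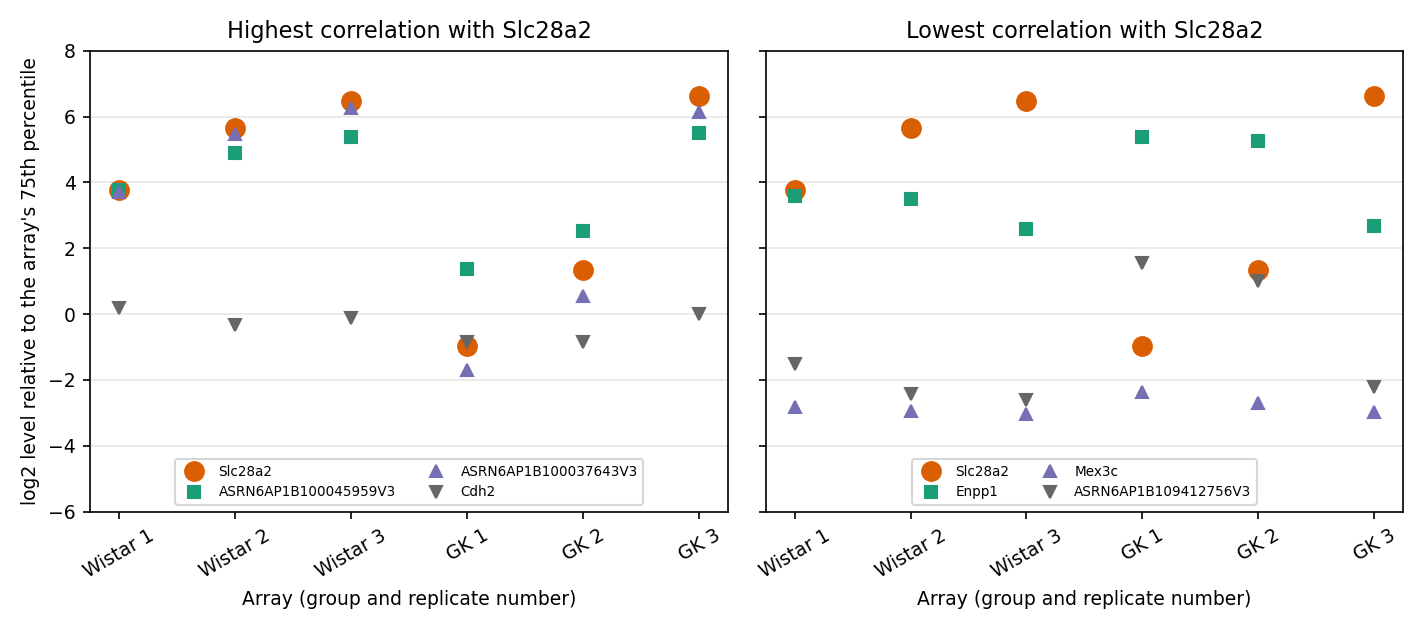
Log2 level (75th percentile of the array subtracted) on each of the 6 arrays, for Slc28a2 (large orange circles in both panels) beside probes with a high (left) and a low (right) correlation with it. ASRN6AP1B100037643V3 follows Slc28a2 to within 0.80 on every array, Cdh2 and Mex3c move over ranges of 1.04 and 0.68, and Enpp1 is highest on GK replicates 1 and 2.

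The division that Slc28a2 shows, with GK replicates 1 and 2 below all 4 other arrays, was common among probes with wide ranges. Counting Slc28a2, 292 probes were well above background on all 6 arrays and ranged over at least 4 log2 units. Of these, 189 (64.7%) had GK replicates 1 and 2 both below the rest, 30 (10.3%) had them both above, and in 57 (19.5%) the GK and Wistar arrays did not overlap. Over all 27595 passing probes measured on every array, the same shares were 8.12%, 13.9% and 18.6%. Of the 74 probes with a wider range than Slc28a2, 59 had GK replicates 1 and 2 both below the rest. In 50 of the 74 the lowest array was GK replicate 1 and the highest Wistar replicate 3, and in 8 the lowest and highest were those of Slc28a2, GK replicate 1 and GK replicate 3. The shares of all passing probes with these lowest and highest arrays are not given here. The exact order of all 6 arrays was shared with 140 of 27594 other passing probes measured on every array. GK replicate 3 also stood apart over all probes, and the part of that difference, of slide or of strain in the Slc28a2 level was not tested.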

How the data were processed

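The 6 scanner tables hold linear intensity per spot, written by the authors' Agilent Feature Extraction software, version 11.0.1.1, from single-colour (Cy3) arrays, per the file headers. The processed signal is corrected for background within an array and is not normalised between arrays. The deposited series table was not used here, since it has no row for this probe. Groups and replicate numbers came from the sample titles.

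Controls and outlier-flagged spots were dropped, log2 values were averaged over the spots of a probe, and the array's 75th percentile over probes was subtracted. A probe passed if 3 or more arrays had it well above background and each group measured it on 2 or more. The two-sided test of GK against Wistar used limma 3.58.1 (R 4.3.3), and p-values were adjusted by Benjamini-Hochberg across the 27920 passing probes; the fit was tested on simulated data. Nothing says that replicates are separate animals, so p-values reflect the spread of these samples alone, which may be technical. Of 50 catalogue probes, 30 matched a RefSeq gene by accession.

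The gene, the lists and the naming rule were chosen with earlier results of these data known. The rule named Slc28a2, list members with a named probe, the 3 other named genes with the highest and the 3 with the lowest Pearson's r, and the unnamed probes with the highest and lowest r among those of wide range. Alternatives were other scalings, normexp, spot handling, filters, slide and replicate blocks, array weights and each array left out. Same-numbered arrays of the groups deviated together at r = 0.0087, 0.099 and 0.42. For arrays with different numbers r ran from -0.54 to 0.46, so numbers were not taken as pairs. The number of arrays limits the precision. Probe sequences were not used here.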

Additional observations from a re-analysis of the deposited data

How the results depend on the processing

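The difference of -2.96 in Slc28a2 kept its sign in all 17 other settings that were run, and in 15 of them it moved by less than the pooled SD between arrays. That SD, 2.91, is about as large as the difference, so the margin is wide. Values as far apart as -5.10 and -1.31 fall within it. The settings reuse the same arrays, and the probe was chosen by its levels on them. The kept sign is therefore a description and not a test. A fixed slide block gave -6.25, as did the fit within the shared slide, chosen after seeing the data, since in both GK replicate 1 is the only GK array set against Wistar. With the replicate number as a block (replicate block) the difference was -2.96 as without it, with a standard error of 1.56 in place of 2.38. This block could not move the difference, because each group holds each replicate number once. Leaving out each array gave differences of -5.10 to -1.31, an SD between GK arrays of 1.62 to 5.36 (the lowest without GK replicate 3), an SD between Wistar arrays of 0.58 to 1.90 (the lowest without Wistar replicate 1), and a range of 5.28 to 7.57. The count of probes with a wider range, 74, was 16 with normexp. It was 32 to 224 when each array was left out, where the range covers fewer arrays. It was 34 when every array had to be well above background, where fewer probes were compared. The list count was 0 to 1 when each array was left out, with 1 (Enpp1) without GK replicate 3. The share of all probes called in that fit is not given here, so that call has no background to be read against. A 75th percentile taken over spots, also chosen after seeing the data, gave -2.97. The authors' table could not serve as an alternative for this probe. Slc28a2 was well above background on all 6 arrays, though its mean signal on GK replicate 1 was only 88.4 units. With normexp (offset 50) its range was 6.96 in place of 7.57. The part of background in the spread was not tested.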
